A study of Arabidopsis thaliana with 12 samples.

Results

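The comparison described here is the change in transcript levels between 1-d-old and 7-d-old seedlings of the Arabidopsis thaliana sig2-2 mutant, a T-DNA insertion line of SIGMA FACTOR2 (SIG2), under continuous red light (Rc). It covers the 6 sig2-2 samples of the 12 in the series, and all nuclear loci at 1 FPKM (fragments per kilobase of transcript, scaled to library size) or more at either age, which were 20386 of 33078 loci. The sequenced groups were Col-0 wild type (WT) and the T-DNA line sig2-2 (SALK_045706), each at 1 d and 7 d with 3 biological replicates per group. All seeds were stratified in darkness for 4 d and germinated on MS medium with sucrose under red light of 50 µmol m-2 s-1. RNA came from whole seedlings and was made into libraries with an mRNA kit, and sig2-2 is a single insertion line, so other lesions in it were not separated from the SIG2 insertion. The deposited tables hold 1 pooled FPKM value per group, so no value below has a replicate error or a test, and the depth behind a value is unknown. Each change is log2((FPKM at 7 d + 1)/(FPKM at 1 d + 1)), a locus is said to have risen or fallen where that change was at least 2-fold, and the pseudocount of 1 FPKM understates the change of low loci. Just inside the limit of 1 FPKM lay AT3G51325, with 1.0006 FPKM at 7 d, and just outside it AT4G17483, with 0.9987 FPKM at 7 d.

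Chloroplast genes are transcribed by a bacterial-type plastid-encoded polymerase, which needs a nuclear-encoded sigma factor to find its promoters, and by phage-type polymerases made in the nucleus. SIG2 is one of these sigma factors and is known for transcription of several plastid tRNA genes and of psaJ, and its loss delays greening. In the days after germination a seedling uses up its stored oil and protein, builds its photosynthetic apparatus and becomes autotrophic, and that developmental course is what the ages compared here span.

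The SIG2 locus itself (AT1G08540, chromosome 1, 2703336 to 2706845 in the coordinates of the tables) matched the labels. It stood at 1.31 FPKM at 1 d and 1.49 FPKM at 7 d in sig2-2, against 66.5 and 87.7 FPKM in WT. Across the 20386 loci, 4062 rose (19.9%) and 3168 fell (15.5%) in sig2-2, and the median change was -0.06. These shares are the background against which each gene group below is read. Over the same loci in WT, 3706 rose (18.2%) and 2713 fell (13.3%). In whole seedlings, fewer cells of a type and less RNA per cell cannot be told apart in any of these values. The largest single value in each column belonged to AT2G01021, a locus within the repeated nuclear rDNA unit, at 25.5% of the summed FPKM in sig2-2 at 1 d and 11.4% at 7 d. In WT it took 32.6% at 1 d and 5.45% at 7 d, so the share of rRNA that remained in the libraries moved with age and differed between the genotypes.

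The genes with the largest rises encoded the light-harvesting chlorophyll-binding proteins of photosystem II, the carbonic anhydrase of leaves and a few proteins known from dark-grown or sugar-starved tissue. LHCB1.4 (AT2G34430, chromosome 2, 14524756 to 14525763) stood at 2.27 FPKM at 1 d and 3189.6 FPKM at 7 d, a rise of 9.93 on the log2 scale. LHCB1.1, LHCB1.2, LHCB1.5, LHCB2.1 and LHCB2.2 were also among the 15 largest rises, at 6.53 to 8.18. LHCB1.3, which had the highest FPKM of any locus outside the rDNA at 7 d, went from 281 to 35208 FPKM, against 128 to 16929.9 FPKM in WT. LHCB1.1, LHCB1.2 and LHCB1.3 are near-identical neighbours on chromosome 1, so reads may have been divided among them and their separate values are uncertain. The other enzymes of leaf carbon metabolism in this group were carbonic anhydrase CA2 (AT5G14740, 1.60 to 926 FPKM) and the photorespiratory alanine:glyoxylate aminotransferase AGT (5.84 to 695 FPKM). PSBQ2, a subunit of the oxygen-evolving complex, went from 5.59 to 812 FPKM.

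A second set among the 15 largest rises had values at 7 d well above those of WT. AT2G33830, annotated as dormancy/auxin associated, went from 1.13 to 849 FPKM in sig2-2 and from 1.17 to 92.6 FPKM in WT. AT3G15450, an aluminium-induced protein with YGL and LRDR motifs, went from 2.13 to 804 FPKM, against 1.09 to 67.1 FPKM in WT. The BTB and TAZ domain proteins BT1 and BT2, which are adaptors of ubiquitin ligases, reached 299.9 and 457 FPKM in sig2-2 and 38.5 and 66.7 FPKM in WT. All 4 genes rose in both genotypes, and each rise was larger in sig2-2 by 1.96 (BT1) to 3.21 (AT2G33830) on the log2 scale. The glycine-rich protein AT1G67870 rose by less in sig2-2 than in WT, to 272 FPKM against 491 FPKM at 7 d. Carbonic anhydrase CA1 (AT3G01500) was listed at 0 in sig2-2 at 1 d and stood at 2255 FPKM at 7 d, so its fold change rests on the pseudocount alone.

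**Figure D1:**
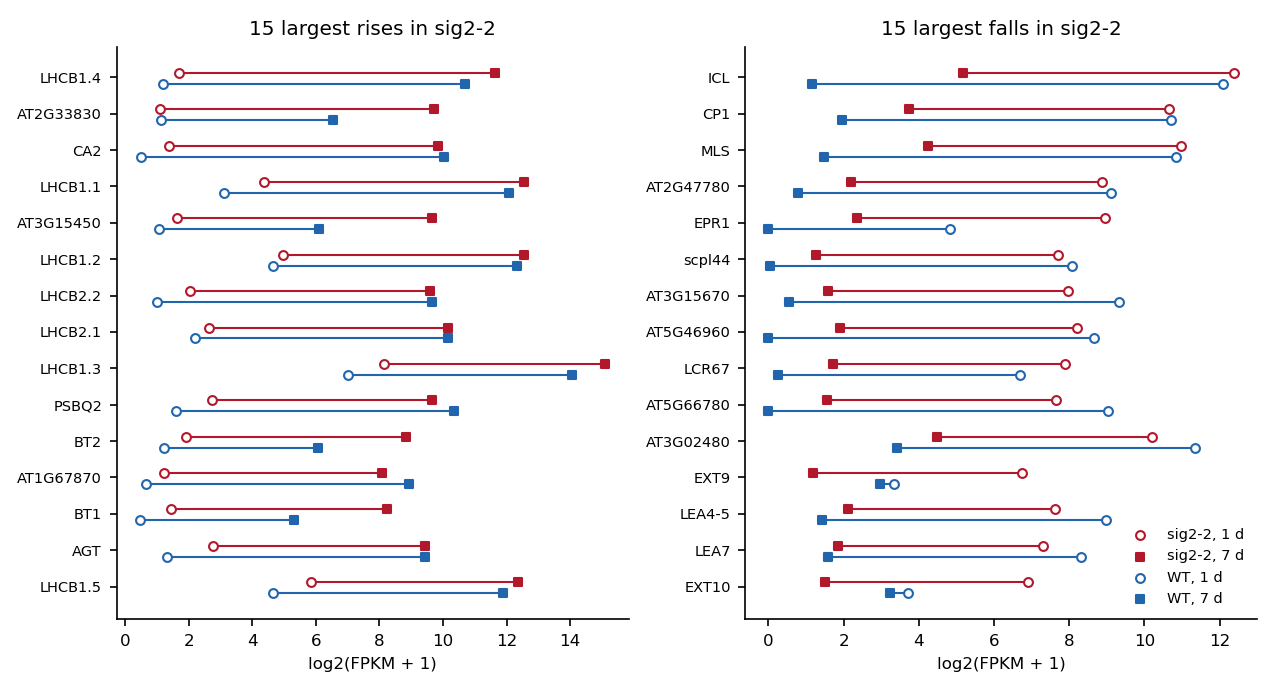
FPKM of the 15 nuclear loci with the largest rises (left) and the 15 with the largest falls (right) in sig2-2 among loci at 1 FPKM or more at both ages, on a log2(FPKM + 1) axis, with 1 pooled value per condition. Open circles are 1 d and filled squares 7 d, red is sig2-2 and blue is WT: LHCB1.4 runs from 2.27 to 3189.6 FPKM in sig2-2, and EXT9 and EXT10 fall in sig2-2 while their WT points lie close together.

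The largest falls were in genes of oil use and late seed development. ICL, the isocitrate lyase of the glyoxylate cycle (AT3G21720, chromosome 3, 7652487 to 7656011), went from 5310.5 FPKM, the second highest level outside the rDNA at 1 d, to 35.2 FPKM. In WT it went from 4368 to 1.25 FPKM, so at 7 d the level in sig2-2 was the higher one. Malate synthase MLS, which takes the next step in that cycle, behaved alike, at 2026 and 18.1 FPKM in sig2-2 against 1830.4 and 1.79 FPKM in WT. The cysteine proteinase CP1 (AT4G36880) fell from 1623 to 12.4 FPKM, and AT2G47780, a rubber elongation factor family protein, from 464 to 3.55 FPKM. Others among the 15 were the serine carboxypeptidase-like gene scpl44, the pectin methylesterase inhibitor family gene AT5G46960 and LCR67, a plant defensin. Of the 15 genes, all but EPR1, EXT9 and EXT10 fell by less in sig2-2 than in WT. Those 3 encode extensins, proline-rich proteins of the cell wall, and each had a far higher level at 1 d in sig2-2 than in WT.

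Photosynthesis genes of the nucleus rose almost without exception. Of 21 light-harvesting antenna genes, 20 rose and none fell, with a median change of 5.62 against -0.06 for all loci. The exception was LHCB4.3 (AT2G40100), at 6.85 FPKM at 1 d and 4.83 FPKM at 7 d in sig2-2, whereas WT went from 4.45 to 25.8 FPKM. All 22 nuclear genes for core subunits of the photosystems rose, by 2.45 (PSBS) to 6.95 (PSBQ2). PSBS encodes the sensor of thylakoid lumen acidity that switches on heat dissipation, and it was already at 236 FPKM at 1 d. PSAK, a peripheral subunit of photosystem I, had the widest gap in that list between its change in sig2-2 and in WT (-2.13). Its level at 7 d was 2049.5 FPKM in sig2-2 against 2799 FPKM in WT, while at 1 d sig2-2 had the higher level. For every one of the 22 genes the rise was smaller in sig2-2 than in WT, with a median difference of -1.16 on the log2 scale. In sig2-2 the 1-d levels of all these genes were higher than in WT and, PSBO1 excepted, the 7-d levels lower.

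The enzymes that fix and recycle carbon followed the same course. Of 18 Calvin cycle genes, 17 rose, with a median of 2.73 in sig2-2 and 4.03 in WT. RBCS1A, a small subunit of rubisco, rose to 17384 FPKM, the second highest level outside the rDNA at 7 d, against 22628 FPKM in WT. CP12-2, which binds and inactivates Calvin cycle enzymes in darkness, had the largest rise of the list (4.41 to 345 FPKM), and triose phosphate isomerase TIM the smallest (224 to 302 FPKM). RBCS1B, RBCS2B and RBCS3B lie side by side and share most of their sequence, so their separate levels are uncertain. Of 13 photorespiration genes, 11 rose. The exceptions were the glycolate oxidase GOX2 (289 and 412 FPKM) and the peroxisomal catalase CAT2, the only member with a negative change (742 and 449 FPKM). Glutamate:glyoxylate aminotransferase GGT1 reached 1748 FPKM in sig2-2 against 1125 FPKM in WT at 7 d.

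Genes for chlorophyll synthesis mostly stayed within 2-fold or rose. Of 18 genes, 7 rose and 1 fell in sig2-2, where WT had 12 rises and 0 falls. The rises included HEMA1, which makes the first committed precursor (30.8 to 270.2 FPKM), the magnesium chelatase subunit CHLH (45.7 to 492 FPKM) and chlorophyllide a oxygenase CAO (11.7 to 135 FPKM). HEMA1 and CAO were the only members with a larger change in sig2-2 than in WT, by 0.13 and 0.12 on the log2 scale. The protochlorophyllide oxidoreductases, which need light to work, did not rise in sig2-2. PORA fell from 17.5 to 5.16 FPKM, PORB stood at 343 and 277 FPKM and PORC at 79.7 and 82.3 FPKM. In WT, PORB and PORC rose to 509 and 196 FPKM. The early light-induced proteins ELIP1 and ELIP2, which protect thylakoids from excess light, fell to 8.72 and 1.94 FPKM at 7 d in sig2-2, while the related one-helix proteins OHP1 and OHP2 rose by 1.90 and 2.73.

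The nuclear genes of the plastid transcription and translation machinery did not follow the photosynthesis genes. Of the other sigma factors, SIG1 (17.9 to 101 FPKM), SIG3 (10.3 to 28.9 FPKM) and SIG5 (2.09 to 23.3 FPKM) rose in sig2-2. SIG4 and SIG6 changed by less than 2-fold. Among the sigma factors other than SIG2, SIG4 had the widest gap between its change in sig2-2 and in WT (-0.53). The phage-type polymerases RPOTp, RPOTmp and RPOTm all changed by less than 2-fold in sig2-2, with RPOTp at 46.2 and 27.4 FPKM. Of 13 proteins associated with the plastid-encoded polymerase, 9 fell and none rose, with a median of -1.39 in sig2-2 and -1.10 in WT. FSD3, an iron superoxide dismutase of that complex, fell most (181 to 44.4 FPKM), and PTAC6 changed least (151 to 116 FPKM). All 19 nuclear-encoded plastid ribosomal proteins stayed within 2-fold, from -0.36 (PRPL9) to 0.49 (PRPL31), and the change of each was lower than in WT, with a median difference of -0.57.

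**Figure D2:**
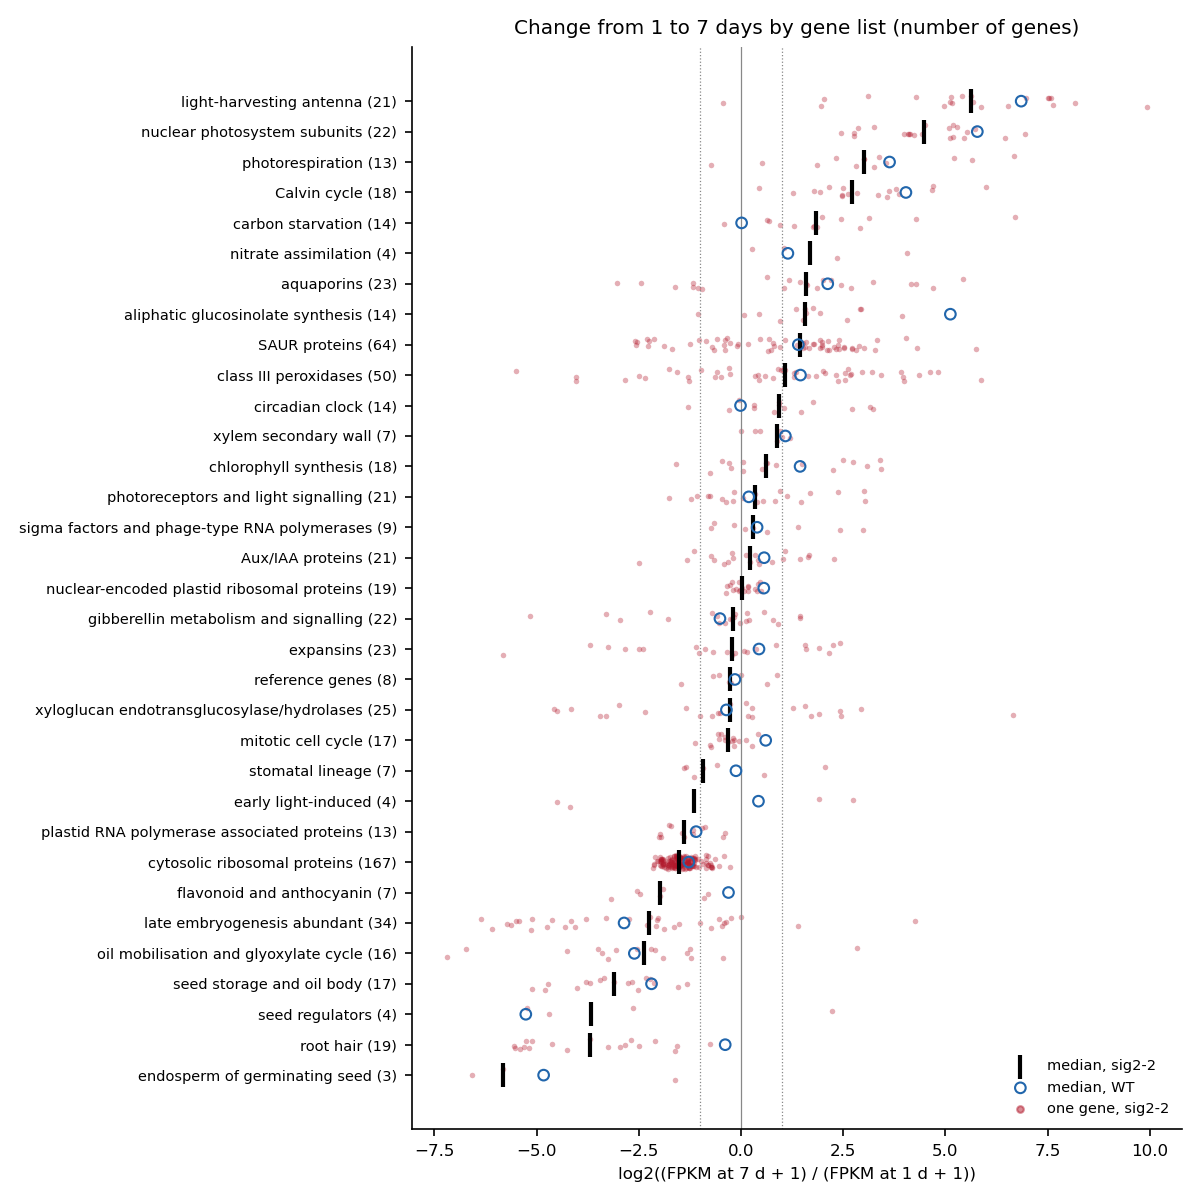
Change from 1 to 7 d by gene list, as log2((FPKM at 7 d + 1)/(FPKM at 1 d + 1)), with the number of genes at 1 FPKM or more in parentheses, dots for single genes in sig2-2, black bars for the sig2-2 median and open blue circles for the WT median over the same genes. The sig2-2 medians run from -5.83 (endosperm genes) to 5.62 (light-harvesting antenna), and the widest gaps to WT are those of the aliphatic glucosinolate and root hair lists.

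Genes of seed reserves, desiccation tolerance and oil use fell together. All 17 seed storage and oil body genes fell in sig2-2, with a median of -3.11, against 14 of the 17 and a median of -2.19 in WT. The filter used sig2-2 values alone, and with the pseudocount a gene below 1 FPKM at 1 d cannot count as a fall. These counts therefore depend on the levels at 1 d, which summed to 287 FPKM in sig2-2 and 185 FPKM in WT. SESA3, a 2S albumin, went from 67.2 to 0.967 FPKM in sig2-2 and from 1.63 FPKM to a listed 0 in WT. The 12S globulin CRU3 went from 21.1 to 0.374 FPKM, starting from 3.37 FPKM in WT. The 2S albumins and 12S globulins named were above WT at 1 d, whereas the late embryogenesis genes EM1 (15.4 FPKM) and EM6 (10.7 FPKM) were below their WT levels of 48.4 and 22.1 FPKM. Of the 34 late embryogenesis abundant (LEA) genes at 1 FPKM or more, out of 45 annotated, 25 fell and 2 rose, and their summed FPKM went from 3412 to 478 in sig2-2. These proteins protect cells during drying. AT3G02480 was the most abundant of them at 1 d, with 1182 FPKM in sig2-2 and 2586 FPKM in WT. The rises were LEA3 (0.366 to 25.1 FPKM) and LEA14 (22.3 to 59.8 FPKM).

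Transcription factors of the seed programme fell with them. ABI3, ABI4 and ABI5, which carry the abscisic acid response of the embryo, stood at 36.4, 45.2 and 22.7 FPKM at 1 d and 0.439, 0.235 and 2.78 FPKM at 7 d. LEC1, LEC2 and FUS3 were below 1 FPKM at both ages. The dormancy gene DOG1 was listed at 0 at 1 d and at 3.64 FPKM at 7 d, against 0.882 FPKM in WT. Of 16 genes of oil mobilisation and the glyoxylate cycle, 14 fell, with a median of -2.37. Beside ICL and MLS, they included PCK1, which starts the way from oil carbon to sugar (1696 to 161 FPKM), and the β-oxidation enzyme MFP2 (883 to 44.9 FPKM). The peroxisomal malate dehydrogenases split, as PMDH1 fell (369 to 31.6 FPKM) and PMDH2 rose (71.5 to 519 FPKM). The oil body lipase SDP1 changed least among the others, at 30.4 and 22.3 FPKM. The endosperm marker EPR1 (AT2G27380) was at 489.9 FPKM in sig2-2 at 1 d against 27.4 FPKM in WT, and EXPA2, an endosperm expansin, at 106 against 244 FPKM.

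The cytosolic ribosome made up the largest coordinated fall by abundance. Of 177 genes for its proteins, 167 were at 1 FPKM or more, 148 of them fell and none rose, within a narrow range of -2.15 (RPS15AA) to -0.27 (RPS15A). Their share of the summed nuclear FPKM, with the rDNA loci left out, went from 17.5% to 6.14% in sig2-2, and it was 7.32% in WT at 7 d. The ribosomal protein L41 gene AT3G08520, which had the highest FPKM at 1 d outside the rDNA, went from 12725 to 3985 FPKM. EF1A (AT5G60390), a translation elongation factor often used as a reference gene, fell with them from 4229 to 1523 FPKM. The other 7 reference genes of the list stayed within 2-fold, from -0.68 (TIP41) to 0.87 (ACT2). Many ribosomal proteins have paralogs of near-identical sequence, so the division of reads among copies is uncertain, although the direction was shared by the list. In the opposite direction, the 21 antenna genes took 0.117% of the summed FPKM at 1 d and 8.67% at 7 d in sig2-2. That share was 6.33% in WT at 7 d. Much of the higher share in sig2-2 lay in LHCB1.3 (35208 against 16929.9 FPKM), whose separate level is uncertain. For 19 of the 21 genes the age change was lower in sig2-2 than in WT, with medians of 5.62 and 6.85.

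**Figure D3:**
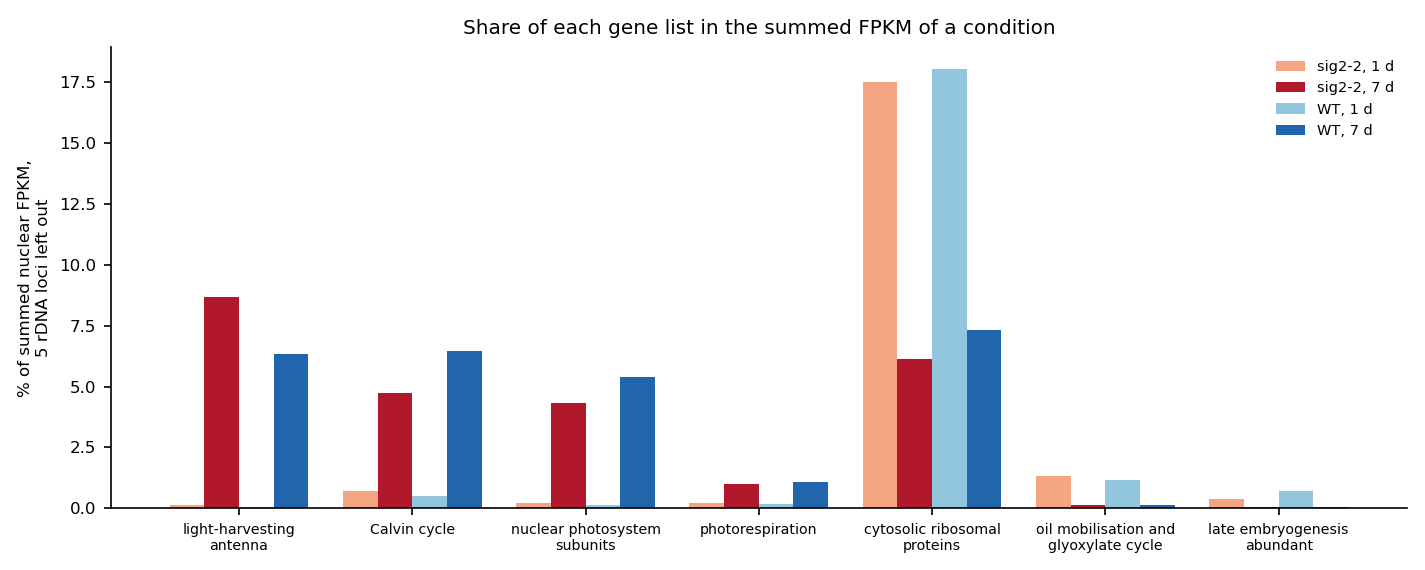
Share of 7 gene lists in the summed nuclear FPKM of each condition, in percent, with the 5 rDNA loci left out and 1 pooled value per condition (light bars 1 d, dark bars 7 d, red sig2-2, blue WT). Cytosolic ribosomal proteins drop from 17.5% to 6.14% in sig2-2 while the light-harvesting antenna climbs to 8.67%.

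Genes known from sugar starvation rose in sig2-2 and on balance did not in WT. Of 14 such genes, 10 rose and none fell in sig2-2, with a median of 1.83, against 3 rises, 2 falls and a median of 0.02 in WT. The asparagine synthetase ASN1 (AT3G47340), a gene of darkness and low sugar, went from 0.277 to 132 FPKM in sig2-2 and from 0.0544 to 1.11 FPKM in WT. SEN1, a gene of senescence and dark treatment, went from 53.1 to 186 FPKM, where WT fell from 25.6 to 7.94 FPKM. The enzymes of branched-chain amino acid breakdown were part of the rise, with BCAT2 at 22.1 FPKM in sig2-2 and 0.299 FPKM in WT at 7 d, and MCCA at 63.6 and 13.5 FPKM. Glutamate dehydrogenase GDH2 reached 393 FPKM from 98.1 FPKM, and proline dehydrogenase PRODH1 159 FPKM from 42.8 FPKM. DIN9, a mannose-6-phosphate isomerase, was the only member with a negative change of any size, at 6.51 and 4.61 FPKM. At 1 d the member furthest from WT was SEN1, and all but D2HGDH had a larger change in sig2-2 than in WT. Nitrate reductases, which use reducing power to make nitrite, were also higher at 7 d in sig2-2 than in WT, NIA1 at 497 against 130.5 FPKM and NIA2 at 1127 against 487 FPKM. Nitrite reductase NIR1, the next enzyme, was at 221 against 213 FPKM.

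Root hair genes had one of the clearest differences between the genotypes, and it came mainly from the values at 1 d. Of 20 genes, 19 were at 1 FPKM or more, and 18 of these fell in sig2-2, against 5 in WT, with medians of -3.68 and -0.39. The list includes extensins, such as EXT13, that the paper had singled out from these same data. It reported them as above WT at 1 d and below WT at 7 d in sig2-2, so their part in these counts was known beforehand. EXT13 (AT5G35190, chromosome 5, 13434181 to 13435167), a root hair extensin, went from 165 to 3.56 FPKM in sig2-2 and from 10.9 to 16.9 FPKM in WT. The summed FPKM of the 20 genes was 960.1 in sig2-2 and 119 in WT at 1 d, and 27.9 and 83.1 at 7 d. The order of the genotypes therefore turned between the ages. The expansins of growing root hairs, EXPA7 and EXPA18, stood at 30.6 and 21.1 FPKM at 1 d and at 1.47 and 1.32 FPKM at 7 d. The transcription factors upstream of them differed less from WT, as RSL4 was at 12.5 FPKM in sig2-2 and 5.55 FPKM in WT at 1 d, and RHD6 at 11.9 and 9.21 FPKM. How far along in germination the seedlings of each genotype were at harvest is not stated by the labels, and the part of seedling stage in these values was not tested. The extensins of this list share repeated sequence, so their separate levels are uncertain.

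Wall-modifying and water-channel families divided into members that rose and members that fell. Of 50 class III peroxidases, which cross-link and loosen walls, 27 rose and 10 fell, from AT3G49960 (62.4 to 0.391 FPKM) to PER21 (1.65 to 154 FPKM). Among 25 xyloglucan endotransglucosylase/hydrolases, 8 rose and 8 fell. XTH24 rose from 45.4 to 250.5 FPKM in sig2-2, while WT was at 51.0 and 39.6 FPKM. XTH12, XTH13 and XTH14 fell from 30.0, 36.0 and 38.2 FPKM, and in WT they were at 3.74, 4.24 and 3.88 FPKM at 1 d. For the 23 expansins the counts were 6 up and 8 down. Aquaporins rose on balance (15 up and 6 down of 23), led by the plasma membrane channel PIP2E (5.76 to 291 FPKM), and the root channel TIP4;1 went from 44.0 to 7.27 FPKM. Of 7 xylem wall genes, 1 rose in sig2-2 and 4 in WT, with medians of 0.88 and 1.09, and all 7 had a lower change in sig2-2. The rise in sig2-2 was XCP2, a protease of dying vessel cells (21.5 to 50.8 FPKM).

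Markers of dividing cells were lower at 7 d in sig2-2 than in WT for every gene listed. Of 17 mitotic genes, none rose and 1 fell in sig2-2, whereas 5 rose in WT, with medians of -0.31 and 0.60. The cytokinesis syntaxin KNOLLE stood at 27.7 and 37.5 FPKM in sig2-2 and at 27.1 and 83.3 FPKM in WT. HIK, a kinesin of cytokinesis, was at 8.20 and 6.90 FPKM, against 7.08 and 18.7 FPKM. Every one of the 17 had a lower age change in sig2-2 than in WT, with differences from -1.50 to -0.48 on the log2 scale. In the stomatal lineage, SPCH, MUTE and EPF1 fell to 10.7, 1.51 and 1.15 FPKM, and FAMA, which acts in the last step, rose from 2.48 to 13.4 FPKM.

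Genes of secondary metabolism separated the genotypes at 7 d. The aliphatic glucosinolate pathway, which makes the methionine-derived defence compounds of the cabbage family, rose in both but by much less in sig2-2. Of 14 genes at 1 FPKM or more, 10 rose in sig2-2 and 13 in WT, with medians of 1.58 and 5.12. The pathway was near 0 at 1 d, with several members listed at 0 in both genotypes, so these medians depend on the pseudocount. At 7 d the chain-elongation enzyme MAM1 stood at 6.58 FPKM in sig2-2 and 117 FPKM in WT, CYP83A1 at 5.02 and 105 FPKM, and BCAT4, which starts the pathway, at 1.99 and 91.7 FPKM. The regulator MYB28 was closer, at 23.2 and 62.1 FPKM, and its homologue MYB29 was at 0.333 and 12.6 FPKM. SUR1, the C-S lyase shared with the indolic branch, was the only member that fell in sig2-2 (49.8 to 23.5 FPKM). Flavonoid genes fell in sig2-2 (5 of 7 at 1 FPKM or more), where WT held 1 fall over the same genes. Chalcone synthase CHS, the entry enzyme, went from 194 to 20.4 FPKM in sig2-2 and stayed at 147 and 143 FPKM in WT. The late anthocyanin enzymes DFR and LDOX were below 1 FPKM at both ages in sig2-2, and at 9.86 and 9.08 FPKM in WT at 7 d.

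In the gibberellin list, 2 of 22 genes rose and 5 fell in sig2-2, against 1 and 5 in WT. The 3-oxidases that make bioactive gibberellin fell, GA3OX2 from 69.1 to 0.972 FPKM and GA3OX1 from 25.5 to 2.39 FPKM, and GA3OX1 was at 7.65 FPKM in WT at 7 d. The growth-repressing DELLA proteins of seeds, RGL2 (34.4 to 2.60 FPKM) and RGL3 (15.4 to 2.49 FPKM), fell, while RGA and GAI stayed within 2-fold. The rises were the locus placed as GA2OX4, which inactivates gibberellin, and the receptor GID1C, to 2.11 and 13.4 FPKM. The loci of GA2OX4 and GA2OX6 carry the same name and identifier in the deposited data, so they were told apart by position. GA2OX4 (AT1G47990) was taken as that on chromosome 1 at 17698655 to 17700834. The paper, however, lists AT1G47990 at a higher level that was nearly equal at both ages in sig2-2. This difference was not resolved, so the identity of the locus and the rise of GA2OX4 are uncertain. Of 64 SAUR genes, small auxin-induced genes of cell expansion, 34 rose and 11 fell, against 35 and 11 in WT, led by AT2G21210 (0.998 to 106 FPKM). Their median of 1.44 became -0.27 over the members at 1 FPKM or more at both ages. The Aux/IAA repressors held 6 rises and 3 falls among 21 genes, from IAA20 (-2.49) to SHY2 (2.28), and 6 rises and 1 fall in WT.

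Among photoreceptors and light-signalling factors, 6 of 21 rose and 3 fell in sig2-2, against 6 and 5 in WT. PIF4, a growth-promoting partner of phytochrome, rose from 3.23 to 32.9 FPKM, a larger change than in WT by 1.43 on the log2 scale, and PIF3 fell from 58.6 to 16.7 FPKM. The red-light receptor PHYB stood at 25.8 and 22.8 FPKM. GLK1 and GLK2, activators of photosynthesis genes, parted, with GLK1 at 18.6 FPKM in sig2-2 and 75.8 FPKM in WT at 7 d and GLK2 at 103 and 116 FPKM. Circadian clock genes rose in 6 of 14 cases in sig2-2 and in 3 in WT. The morning genes CCA1 and LHY rose alike in both, CCA1 to 33.9 FPKM and 36.4 FPKM, whereas PRR7 and PRR5 reached 46.3 and 18.6 FPKM in sig2-2 and 10.5 and 5.84 FPKM in WT. The hour of harvest is not given by the labels, and its part in these values was not tested.

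Set against each other, the age changes of the genotypes shared most of their structure. Across the 20386 loci the changes in sig2-2 and WT had a Spearman correlation of 0.83 and a Pearson correlation of 0.81. Both are a description over genes, which are not independent. The paper does not state whether the libraries of both ages and genotypes were normalised together. The loci that rose in both numbered 2924, which was 72.0% of the rises in sig2-2 and 78.9% of those in WT. For falls the number was 2010, or 63.4% and 74.1%. Few loci went opposite ways by 2-fold or more in each genotype, 29 rising in sig2-2 (0.142%) and 36 falling (0.177%). The change in sig2-2 exceeded that in WT by 2-fold or more at 5.71% of loci and fell short of it by as much at 6.46%. Among the 20942 loci at 1 FPKM or more in any condition, 287 (1.37%) had a change at least 4-fold above that in WT and 371 (1.77%) one at least 4-fold below.

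Against the 2-fold shares, the gene lists differed widely. Of the 14 starvation genes, 10 had a change at least 2-fold above that in WT and none one below. In the root hair list, which includes extensins that the paper had singled out from these data, 15 of 19 fell short of WT by 2-fold or more. In the glucosinolate list all 14 did. Single loci were ranked only among the 12622 with 1 FPKM or more in all 4 conditions and 10 FPKM or more in at least 1, which leaves out genes near 0 such as ASN1. Among these the locus furthest below WT was EXT13, with a difference of -5.78 on the log2 scale, followed by AT2G14247, an uncharacterised protein, EXT9, AT1G05250, a peroxidase, FTM1, a fatty acid desaturase (207 to 6.94 FPKM), EXT10 and the root hair specific genes RHS13 and RHS19. RHS13 and RHS19 stood at 38.5 and 59.6 FPKM at 1 d in sig2-2 and at 3.59 and 7.03 FPKM in WT. Furthest above WT among the same loci was AT3G45730, an uncharacterised protein, at 1.34 and 49.7 FPKM in sig2-2 and 2.85 and 4.61 FPKM in WT. The spliceosomal RNA U12 (3.88) and ICL (3.73) followed. Others in that group were the PQ-loop protein AT4G36850 (15.4 to 137 FPKM), the uncharacterised AT2G12905, and AT2G20670, a DUF506 family protein (2.08 to 238 FPKM). The group also held MIOX2, a myo-inositol oxygenase (79.5 FPKM against 6.21 FPKM in WT at 7 d), and the wall β-xylosidase BXL1 (255 against 29.2 FPKM).

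**Figure D4:**
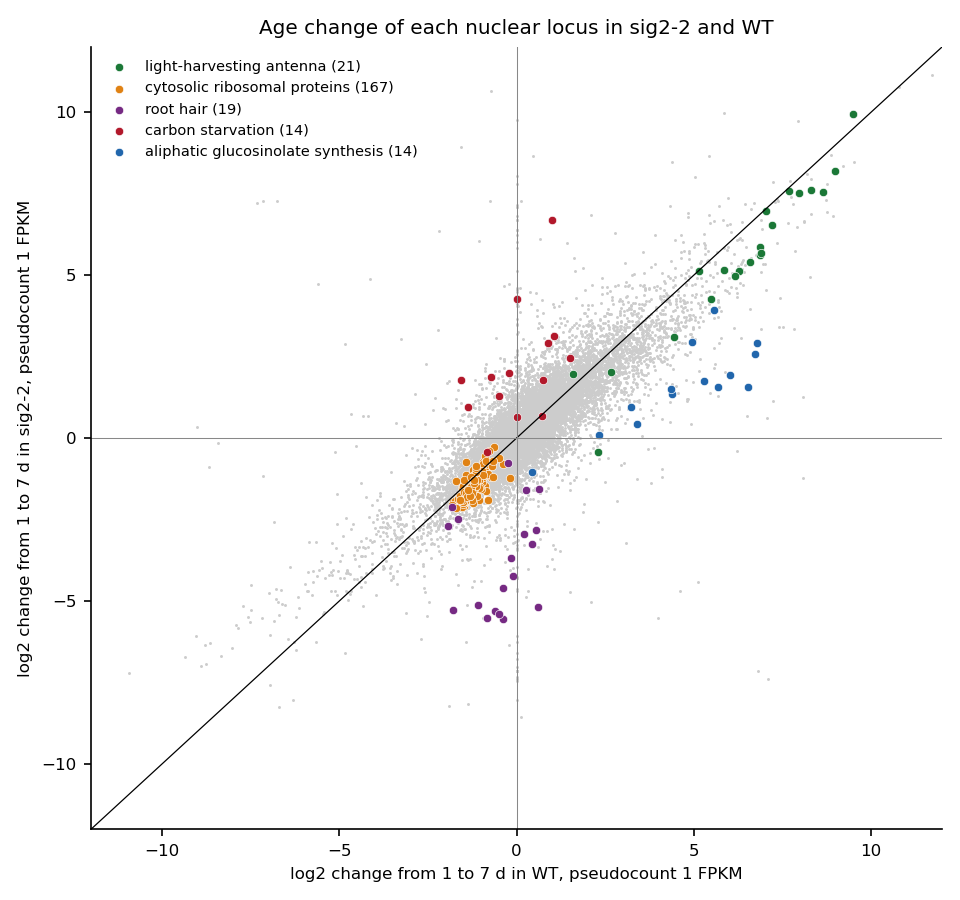
Age change of the 20386 nuclear loci in WT (horizontal) and in sig2-2 (vertical), each as log2((FPKM at 7 d + 1)/(FPKM at 1 d + 1)), with 5 gene lists in colour and equal changes on the diagonal line. All carbon starvation genes but D2HGDH lie above the line, and root hair and aliphatic glucosinolate genes below it, while cytosolic ribosomal proteins form one cluster at negative values on both axes.

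The plastid genome showed the sharpest contrast. Of 130 plastid loci, 87 were at 1 FPKM or more at either age in sig2-2, and 86 of these rose (98.9%). Over the same loci in WT, 5 rose (5.75%) and 33 fell (37.9%). These loci were chosen on sig2-2 values alone. A locus listed at 0 in sig2-2 at 1 d entered only through its 7-d value, so it could count only as a rise. Among the 47 protein-coding loci of 300 bases or more, which avoid the unstable FPKM of very short loci, every one rose in sig2-2, by 1.17 to 4.72. This set includes ndhC and rps12C, both listed at 0 in sig2-2 at 1 d. The median was 2.85 in sig2-2 and -0.92 in WT. The gap lay mainly at 7 d, when the sig2-2 level was above WT at all 47 loci, by 3.18 at the median on the log2 scale. At 1 d it was above WT at 5 of 47, with a median of -0.55.

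Among the protein-coding classes of the plastid, those of photosynthesis had the highest median rises in sig2-2. Single members of other classes rose as much, such as rps14 (4.02). psbA, which encodes the D1 protein of photosystem II, went from 3.43 to 116 FPKM in sig2-2 and from 10.7 to 34.9 FPKM in WT, where it was the largest rise of the set. The photosystem I core genes psaA and psaB reached 63.8 and 88.2 FPKM from 4.59 and 5.81 FPKM, while WT was at 6.14 and 9.24 FPKM at 7 d. rbcL, the large subunit of rubisco, went from 15.8 to 121 FPKM, against 22.8 to 25.3 FPKM in WT. The ATP synthase genes atpA and atpF rose to 132 and 160.1 FPKM from 8.29 and 8.99 FPKM. psaJ, a known target of SIG2 and only 135 bases long, was at 18.1 and 187 FPKM in sig2-2 and at 36.3 and 125 FPKM in WT, so it rose by 2-fold or more in both, with a difference of 1.54 between the changes.

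The RNA polymerase and ribosomal protein genes of the plastid rose less at the median in sig2-2 than its photosynthesis classes. Their medians in WT were negative. Negative WT medians were also found for ATP synthase (-0.87), NDH complex (-0.68), photosystem I (-0.63) and cytochrome b6f (-0.16) loci. The WT medians of photosystem II loci (0.37) and rbcL (0.15) were positive. The 4 RNA polymerase genes had a median of 1.37 in sig2-2 and -1.55 in WT, with rpoB at 6.19 and 15.2 FPKM in sig2-2 and 8.11 and 3.75 FPKM in WT. In the 300-base set rpoB had the smallest rise (1.17), and matK, a splicing maturase, stood at 1.66. The 18 ribosomal protein loci had a median of 2.58 in sig2-2 and -1.72 in WT, clpP1 went from 13.9 to 55.7 FPKM and accD, the carboxylase subunit of fatty acid synthesis, from 1.17 to 18.4 FPKM. The NDH complex genes, which serve cyclic electron flow, had a median rise of 3.07, with WT between -1.51 and 0.50. Of the tRNA loci, 13 of 37 were at 1 FPKM or more. Several short loci were listed at 0 in sig2-2 at 1 d, so each counts as a rise but has no fold change. Among them were trnR (2478 FPKM at 7 d), trnH (1054 FPKM), trnP (933 FPKM) and psbL (761 FPKM). In WT, trnR went from 288 FPKM at 1 d to 0 at 7 d and trnH from 833 FPKM to 0. WT values at 1 d and 7 d were 123 and 227 FPKM for trnP and 44.1 and 133 FPKM for psbL. Only 1 plastid locus fell, a trnG locus at 191 FPKM at 1 d and 0 at 7 d, and the next smallest changes were those of a trnT locus (1.09), rpoB, rpoC1 and rps16. The 16S and 23S rRNA loci of the plastid also rose in sig2-2, to 10.7 and 15.9 FPKM against 0.734 and 1.33 FPKM in WT.

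Most plastid transcripts carry no long poly(A) tail, so an mRNA kit samples them incompletely and to a degree that can vary between libraries. Values that bear on this moved with the genotype at 7 d, as the 5 nuclear rDNA loci took 12.5% of the summed FPKM in sig2-2 and 6.02% in WT. At 1 d the order was the other way, with 27.8% and 34.8%. Within sig2-2 the rDNA loci fell from 1 to 7 d (AT2G01021 had a change of -1.43) while the plastid loci rose. Mitochondrial transcripts, also mostly without a tail, fell in sig2-2 or stayed within 2-fold. Of 141 mitochondrial loci, 24 were at 1 FPKM or more in sig2-2, 10 of these fell and none rose, and in WT 18 fell. The mitochondrial 26S rRNA locus went from 208 to 65.5 FPKM in sig2-2 and from 331 to 32.0 FPKM in WT. At 7 d its level in sig2-2 was above that in WT by 1.01 on the log2 scale, against 2.21 for rbcL and 3.18 for psaA. Of the 24 mitochondrial loci, 22 were above WT at 7 d, by 0.74 at the median of the 24, with the RPL16/RPS3 locus at 2.72. The age change was also higher in sig2-2 than in WT at 22 of the 24, with a median difference of 1.31. The difference from WT thus had the same direction at most mitochondrial and plastid loci. With each column rescaled to the summed FPKM of the plastid loci, 18 plastid loci rose by 2-fold or more. That sum went from 1518 FPKM at 1 d to 19664 FPKM at 7 d in sig2-2. Its tRNA loci held 397 and 7932 FPKM, and its protein-coding loci of 300 bases or more 313 and 2808 FPKM. The scale was thus set mainly by tRNA and short loci, so it does not isolate a shift common to all plastid loci. The part of the poly(A) selection in the plastid values was not tested.

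**Figure D5:**
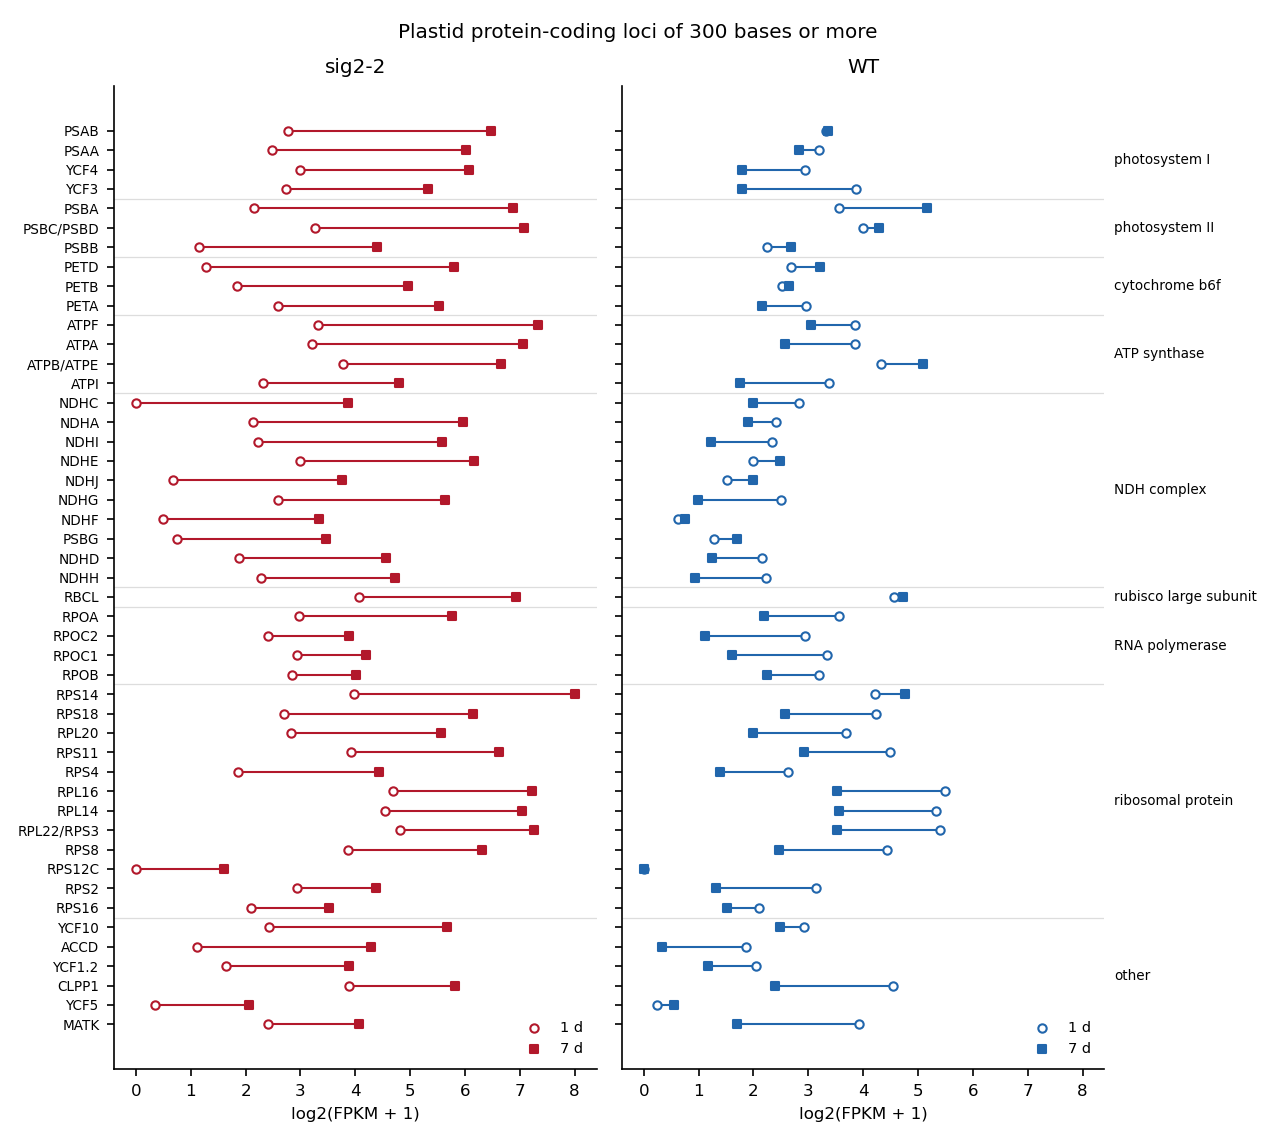
FPKM of the 47 plastid protein-coding loci of 300 bases or more at 1 d (open circles) and 7 d (filled squares) in sig2-2 (left, red) and WT (right, blue), on a log2(FPKM + 1) axis, grouped by complex. In sig2-2 every square lies to the right of its circle, whereas in WT most squares lie to the left, with psbA and the atpB/atpE locus among the exceptions.

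The letters upstream of 5 of these genes are shown with the counts of short motifs in each list. In RefSeq gene models on TAIR10.1, the 250 bases before the annotated start were read for 26571 protein-coding genes and searched on both strands. The site II element (TGGGCC or TGGGCT) lay in 67.8% of the 177 cytosolic ribosomal protein genes and in 19.4% of all promoters, and the telo-box (AAACCCTA) in 23.2% and 4.45%. The seed motif RY (searched as its core CATGCA) lay in 13 of 17 seed storage and oil body genes (8.49% of all). The G-box (CACGTG) lay in 9 of those 17, in 18 of 45 LEA genes and in 5 of 21 antenna genes (6.58% of all). The I-box (GATAAG) lay in 5 of 14 starvation genes and 4 of 21 antenna genes (12.2% of all), and the evening element (AAAATATCT) in 4 of 14 clock genes and in 638 of all promoters. Over all members, the site II element was in 29.2% of the genes that fell, 23.8% of those within 2-fold and 11.7% of those that rose. The matches are a description of these windows, and no binding was measured.

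In each of 5 lists the promoter printed is that of the member with the largest change whose window holds chosen motifs: the G-box for antenna and for LEA genes, the I-box for starvation genes, the site II element and telo-box for ribosomal protein genes, and the G-box and RY core for seed storage genes. Each runs from 250 bases before the RefSeq start to the base before it, 5′ to 3′ along the gene, with every match to the 6 motifs in capitals.
LHCB2.4: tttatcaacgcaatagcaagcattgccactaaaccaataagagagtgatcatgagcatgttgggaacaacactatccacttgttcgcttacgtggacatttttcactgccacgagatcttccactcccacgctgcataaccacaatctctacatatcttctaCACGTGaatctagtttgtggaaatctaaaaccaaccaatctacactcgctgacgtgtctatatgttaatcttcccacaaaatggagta
ASN1: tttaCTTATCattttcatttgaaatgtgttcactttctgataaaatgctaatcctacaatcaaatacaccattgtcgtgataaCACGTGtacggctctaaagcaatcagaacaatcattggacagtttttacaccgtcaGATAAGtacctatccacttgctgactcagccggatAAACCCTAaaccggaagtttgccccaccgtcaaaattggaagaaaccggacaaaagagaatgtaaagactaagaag
RPS23A: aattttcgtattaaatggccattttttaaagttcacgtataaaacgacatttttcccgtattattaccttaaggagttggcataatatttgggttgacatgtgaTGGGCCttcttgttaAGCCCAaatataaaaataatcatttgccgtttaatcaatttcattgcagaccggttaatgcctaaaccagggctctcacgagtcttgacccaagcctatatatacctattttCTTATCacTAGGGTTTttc
SESA3: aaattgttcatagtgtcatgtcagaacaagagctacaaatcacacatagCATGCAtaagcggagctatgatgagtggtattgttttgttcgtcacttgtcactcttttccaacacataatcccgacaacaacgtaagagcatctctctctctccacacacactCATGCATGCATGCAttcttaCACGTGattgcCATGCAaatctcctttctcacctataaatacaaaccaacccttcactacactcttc
AT3G02480: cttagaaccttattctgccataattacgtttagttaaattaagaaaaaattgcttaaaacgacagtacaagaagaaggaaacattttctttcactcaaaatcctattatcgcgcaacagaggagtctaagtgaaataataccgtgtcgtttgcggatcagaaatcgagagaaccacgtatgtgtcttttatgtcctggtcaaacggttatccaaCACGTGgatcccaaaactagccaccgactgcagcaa
In order, these are chr3:10255656-10255905 (plus strand) for LHCB2.4, chr3:17441432-17441681 (minus strand) for ASN1, chr3:2970372-2970621 (minus strand) for RPS23A, chr4:13611546-13611795 (plus strand) for SESA3 and chr3:511970-512219 (plus strand) for AT3G02480. LHCB2.4, at 0.745 and 342 FPKM in sig2-2, holds 1 G-box. The promoter of ASN1 holds a G-box, 2 I-boxes and a telo-box. RPS23A, a protein of the small ribosomal subunit that fell from 98.1 to 24.0 FPKM, has 2 site II elements, a telo-box and an I-box. SESA3 has a G-box between RY cores, several of which overlap, and AT3G02480 has 1 G-box.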

How the data were processed

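Seedlings of both genotypes (Col-0 WT, sig2-2) were sampled whole at 1 d and 7 d under Rc, in 3 replicates per group, and sequenced with an mRNA kit as reads of 55 bases. The authors computed FPKM values with Cufflinks and Cuffdiff, tools that the submitters' processing notes name without versions, and deposited 1 combined FPKM value per group and locus. The genome build is not given in the sources used here. Further deposited columns held the authors' own comparisons between genotypes (log2 ratio, test statistic, p-value, q-value and a significance mark) and were not used.

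Nuclear loci came from the table of all 4 groups, and plastid and mitochondrial loci from the tables of single groups. Of 33078 nuclear loci, 32060 were matched to a RefSeq TAIR10.1 gene by identifier and position, 589 by position and 429 to none. A locus boundary was shared with TAIR10.1 for 52.7% of loci. The 4 lines of the table that hold no locus were left out. Changes were computed with a pseudocount of 1 FPKM over loci at 1 FPKM or more at either age, in pandas 2.3.3 under Python 3.11.15, correlations with scipy 1.17.1 and plots with matplotlib 3.10.9 (numpy 2.4.6). A locus was called at a 2-fold change. The limma fit planned for replicate columns could not be made, so there is no test. The scripts were checked on simulated data. Alternatives changed the pseudocount, the filter, the scaling and the source table.

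Genes were named by rule: the 15 largest rises and falls among loci at 1 FPKM or more at both ages, the highest levels, the 8 loci whose change differed most from WT in each direction among 12622 loci at 1 FPKM or more in all 4 groups and 10 FPKM or more in at least 1, loci listed at 0 at 1 age, and the ends of each list. Further list members were named for their roles, after their values were seen. The members and the 33 gene lists were chosen with earlier results of these data known, and several lists (among them plastid ribosomal proteins, gibberellin and the circadian clock) were added after the files had been read.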

Additional observations from a re-analysis of the deposited data

Results flagged for a closer look

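Some loci and plastid gene classes changed by 2-fold or more in opposite directions in sig2-2 and WT. With 1 pooled value per group, none of these differences was tested. Of the loci named for the widest gap to WT, AT2G12905 had a change of 1.68 in sig2-2 and -1.96 in WT, and the β-xylosidase gene BXL1 one of 1.21 and -2.30. In the other direction, AT2G14247 had a change of -1.38 in sig2-2 and 3.79 in WT. The peroxidase gene AT1G05250 had one of -4.03 and 1.07, and its neighbour AT1G05240 is a near-identical copy, so its separate level is uncertain. Among plastid classes, the median change of the RNA polymerase loci was 1.37 in sig2-2 and -1.55 in WT. That of the ribosomal protein loci was 2.58 and -1.72, and that of the loci in no photosynthetic or ribosomal class, such as clpP1, accD and matK, was 2.09 and -1.21.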

How the results depend on the processing

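No paired analysis was possible because the tables hold 1 pooled value per group, and for the same reason no replicate could be left out. For the genes named by rule, 928 values under the alternatives were within the 1.5-fold limit taken for a change and 121 were beyond it. A reversal was looked for only where the main change was at least 2-fold, for genes and list medians alike. None was found among these genes. Genes named only for their roles were not run. Of the list medians, 237 values under the alternatives were within their limit, 26 were beyond it and 1 reversed.

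With a pseudocount of 0.1 FPKM the medians became -4.53 for seed storage, -4.535 for seed regulators, -6.76 for endosperm, -4.29 for root hair, 3.08 for glucosinolate, -3.52 for LEA and 2.485 for SAUR genes, and 1434 loci differed 4-fold or more between the genotypes. With 10 FPKM, 1684 loci rose, 1487 fell and 211 differed 4-fold between the genotypes. The medians were then -1.15 for seed storage, -1.755 for seed regulators, -3.41 for endosperm, -1.825 for root hair, 0.36 for glucosinolate, -0.30 for early light-induced, -1.14 for LEA, 0.47 for peroxidase and 0.29 for SAUR genes, and 1.88 for the plastid protein-coding loci. These shifts follow from the pseudocount, which weighs most on low values.

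Over loci at 1 FPKM or more at both ages, 2569 rose, and the medians were -2.65 for seed regulators, -4.10 for endosperm and 0.44 for glucosinolate genes, while that of SAUR genes reversed to -0.27. That filter leaves out loci near 0 at 1 age. At 5 FPKM or more at either age the median of seed regulators was -4.70. With no filter it was -0.039, with -0.82 for flavonoid, 1.04 for nitrate, -1.64 for LEA, 0.44 for peroxidase and 0.73 for SAUR genes.

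With each column rescaled over the plastid loci, 18 plastid loci rose. Divided by the rDNA loci, the plastid median was 4.2. That scaling and the pseudocounts for the plastid median were chosen after seeing the data.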

Other observations

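Among the loci of which 1 age was listed at 0 in sig2-2, 134 had 0 at 1 d and 10 FPKM or more at 7 d, and 46 of these were shorter than 300 bases. The microRNA precursor loci MIR160c (999 FPKM at 7 d) and MIR156f (870.4 FPKM) belonged to that set, whereas the glycine-rich protein gene GRP9 (409 FPKM, against 524 FPKM in WT) encodes a protein. In the other direction, 46 loci had 10 FPKM or more at 1 d and 0 at 7 d, 38 of them shorter than 300 bases. The microRNA precursor MIR170 led these, at 379 FPKM at 1 d, while WT stood at 329.9 and 358 FPKM. For loci not much longer than the reads, a few fragments set the FPKM, and the depth behind these values is unknown.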
